A study of Mus musculus with 12 samples.

Results

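Of 222105 open chromatin peaks mapped in mouse T helper cells, 20603 (9.28%) were autosomal peaks centred within 1 kb of either end of a protein-coding gene, and these gene-end peaks are described here. They were chosen by position alone, from the span of each gene in RefSeq's table for GRCm38.p6. ATAC-seq, in which a transposase cuts accessible DNA and the inserts are counted by position, had been applied to 12 libraries in 4 groups of 3. All cells came from C57/B6 mice. They began as naive CD4+ T cells of spleen and dLN (lymph node) and were cultured to the state that the submitters name Th17Hom. WT control and WT Dex cells carried an intact glucocorticoid receptor (GR) gene, and cKO control and cKO Dex cells came from GR conditional knockout mice. The Dex groups had dexamethasone (Dex), a synthetic glucocorticoid, for 2 days, and the control groups did not. Each library was made from 6000 sorted cells with 16 PCR cycles. The sources used here do not give the Cre line behind the knockout, the animals' age or what the controls received. Whether libraries of 1 group stem from different mice or dishes is not stated in the labels, and the p-values reflect just their spread, which may be technical.

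Transcription begins at the start of a gene, where a promoter is usually kept free of nucleosomes so that general factors and RNA polymerase can assemble. Many mammalian promoters lie in CpG islands and are open in most cell types, whereas the other end of a gene, where transcripts are cleaved and polyadenylated, has no promoter of that gene. The glucocorticoid receptor is a ligand-activated transcription factor that enters the nucleus when it binds hormone and acts largely at enhancers, many of which lie far from promoters. In T cells it is known for restraining inflammatory cytokines and for effects on survival and migration.

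Promoter DNA of 7 genes is shown because the peaks over it carried the responses described further on or lay among the most accessible. Each run is 300 bases from RefSeq on GRCm38.p6, from 250 bases before the annotated start to 50 after it, 5′ to 3′ on the strand of the gene. Capitals mark matches to a searched motif. Arap2 (chr5:62766128-62766427, minus strand), Gimap3 (chr6:48770802-48771101, minus strand), Orm3 (chr4:63355908-63356207, plus strand), Ctla2b (chr13:60897398-60897697, minus strand) and Cnp (chr11:100574689-100574988, plus strand) lay under peaks that rose with Dex in WT cells. Ctnnbip1 (chr4:149517991-149518290, plus strand) lay under a peak that was lower in cKO control than in WT control cells. Dusp2 (chr2:127335909-127336208, plus strand) lay under a peak among the highest in WT control cells.
Arap2: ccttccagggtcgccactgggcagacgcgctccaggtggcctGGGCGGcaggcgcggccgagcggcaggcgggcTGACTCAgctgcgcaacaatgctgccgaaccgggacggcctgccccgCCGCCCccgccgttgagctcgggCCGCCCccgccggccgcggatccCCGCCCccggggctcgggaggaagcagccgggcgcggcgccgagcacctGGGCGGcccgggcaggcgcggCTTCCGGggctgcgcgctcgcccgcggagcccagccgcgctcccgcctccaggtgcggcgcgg
Gimap3: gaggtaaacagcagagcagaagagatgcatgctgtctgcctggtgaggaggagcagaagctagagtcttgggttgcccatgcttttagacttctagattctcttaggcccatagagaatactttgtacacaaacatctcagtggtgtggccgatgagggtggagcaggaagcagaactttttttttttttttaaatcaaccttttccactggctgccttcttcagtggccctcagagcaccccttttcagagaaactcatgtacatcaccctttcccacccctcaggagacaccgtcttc
Orm3: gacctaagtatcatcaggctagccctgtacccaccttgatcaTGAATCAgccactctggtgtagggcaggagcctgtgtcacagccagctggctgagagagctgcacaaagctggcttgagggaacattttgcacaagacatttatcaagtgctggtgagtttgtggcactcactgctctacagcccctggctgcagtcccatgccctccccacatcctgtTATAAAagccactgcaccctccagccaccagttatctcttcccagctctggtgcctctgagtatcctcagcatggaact
Ctla2b: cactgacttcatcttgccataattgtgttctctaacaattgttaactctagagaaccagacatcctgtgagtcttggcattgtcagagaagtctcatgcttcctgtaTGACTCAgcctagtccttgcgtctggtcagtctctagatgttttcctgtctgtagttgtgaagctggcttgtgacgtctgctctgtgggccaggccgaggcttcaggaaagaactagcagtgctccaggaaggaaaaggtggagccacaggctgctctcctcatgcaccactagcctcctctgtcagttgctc
Cnp: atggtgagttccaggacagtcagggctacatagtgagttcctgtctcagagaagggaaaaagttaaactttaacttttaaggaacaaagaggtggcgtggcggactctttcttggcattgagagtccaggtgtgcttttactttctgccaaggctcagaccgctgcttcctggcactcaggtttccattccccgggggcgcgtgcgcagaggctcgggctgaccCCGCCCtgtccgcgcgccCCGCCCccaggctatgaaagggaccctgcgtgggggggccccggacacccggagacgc
Ctnnbip1: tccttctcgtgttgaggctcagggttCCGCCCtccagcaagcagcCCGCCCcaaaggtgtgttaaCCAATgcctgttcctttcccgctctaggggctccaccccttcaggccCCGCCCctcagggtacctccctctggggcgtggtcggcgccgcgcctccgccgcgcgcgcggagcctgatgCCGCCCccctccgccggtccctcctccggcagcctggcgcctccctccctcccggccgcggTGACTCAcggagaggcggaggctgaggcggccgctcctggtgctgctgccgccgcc
Dusp2: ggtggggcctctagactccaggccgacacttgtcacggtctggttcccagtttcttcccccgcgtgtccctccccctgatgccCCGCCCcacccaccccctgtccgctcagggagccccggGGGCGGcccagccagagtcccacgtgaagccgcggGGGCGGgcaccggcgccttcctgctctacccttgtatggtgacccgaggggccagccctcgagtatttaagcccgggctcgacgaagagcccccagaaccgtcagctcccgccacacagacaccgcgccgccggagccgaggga
The Arap2 run has 81.7% G and C, with 5 GC boxes (GGGCGG on either strand), an AP-1 match (TGANTCA) 176 bases before the start and an ETS match (CCGGAAG on either strand) 13 bases before it. The Gimap3 run has 48.0% G and C and none of the searched motifs. Orm3 has an AP-1 match that reads TGAATCA 208 bases before the start and a TATA box (TATAAA) 29 bases before it. Ctla2b has an AP-1 match that reads TGACTCA 143 bases before its start. The AP-1 search took any base at the middle position, here and in the shares given below, so its matches include looser spellings such as that of Orm3. Ctnnbip1 joins 4 GC boxes with a CCAAT box and with an AP-1 match 6 bases before the start. The glucocorticoid response element, searched as AGAACA and TGTTCT with any 3 bases between, is in none of the 7. Sites with other letters were not searched, so this does not show that the receptor has no site there.

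Strand, taken from the promoter table, split the members into 11390 peaks nearest a gene start, 4904 nearest the other end of a gene, and 4309 for which no strand was at hand. Peaks at starts had a median width of 1156 bases and a median level of 13.3 CPM (counts scaled to the size of the library), against 404 bases and 1.12 CPM at other ends. Peaks inside a gene but over 1 kb from its ends had medians of 367 bases and 1.17 CPM, and peaks between genes 357 bases and 1.16 CPM. Per kb of peak the medians were 10.1 CPM at starts, 2.83 at other ends, 3.20 inside genes and 3.28 between genes. Of the tested peaks at starts 56.4% had a mean over 10 CPM, against 8.23% at other ends, 9.46% inside genes and 8.90% between genes. The name promoter-like, given to the members as a whole, therefore describes the level and width of the peaks at starts and not those of the peaks at other ends. A filter on low counts passed 19558 members and left out 1045.

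The level of a peak followed its position relative to the start. Start peaks were centred a median of 144 bases downstream, with 69.1% downstream of the start, and 75.9% of them held the start itself, whereas 17.0% of other-end peaks held that end. Centred from 400 bases before to 600 bases after the start, the peaks had medians between 15.2 and 19.02 CPM in 200-base bins. Centred 600 to 1000 bases before it, the medians were 0.991 and 1.00 CPM. At other ends no bin had a median above 1.43 CPM. At the edge of the rule, 1227 tested members centred 900 to 1000 bases from the nearest gene end had a median of 1.21 CPM, and 1307 peaks just outside, at 1000 to 1100 bases, had 1.15 CPM. Another 262 tested peaks held a gene end but were centred over 1 kb from any, with a median width of 3539 bases and a level of 44.7 CPM, so the rule leaves out a group of very wide peaks at gene ends.

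**Figure D1:**
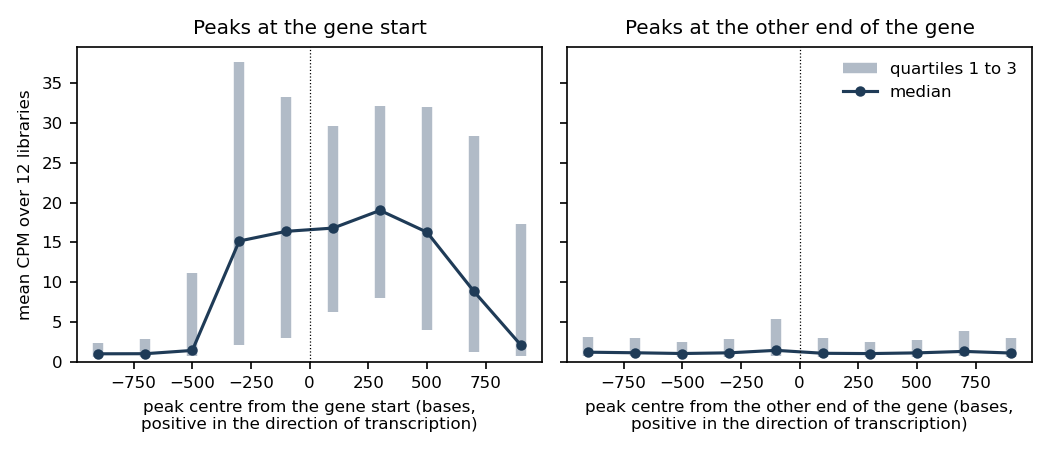
Mean CPM over the 12 libraries of gene-end peaks against the distance of their centre from the gene start (left) or from the other end of the gene (right) in bases, with the median as points and quartiles as bars in 200-base bins. Medians at starts reach 15.2 to 19.02 CPM from 400 bases before to 600 bases after the start, and medians at other ends stay at or under 1.43 CPM.

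Most protein-coding genes had such a peak. Of 20665 autosomal genes, 14435 (69.9%) had a gene-end peak. Of 16457 with known strand, 10680 (64.9%) had one at the start, 4719 (28.7%) at the other end and 3882 at both, of which 279 were under 2 kb long. Peaks that reach the starts of 2 or more genes, such as bidirectional promoters, numbered 917, with a median of 27.9 CPM and 17.0 CPM per kb against 11.9 CPM and 9.36 CPM per kb for the 10039 with 1 start in reach. Of the 917, 0 were called for Dex in WT, where 0.137% of all tested start peaks were, so that 0 is near what that share gives. Where several genes are in reach the peak is named here by the nearest end, which need not be the gene it regulates.

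The sequence under open starts differed from that under starts without a peak. RefSeq promoter runs of 8966 autosomal genes lay at least 150 bases within a gene-end peak, with a median of 61.7% G and C and an observed-to-expected CpG ratio of 0.777. The 5896 runs without any peak had 47.0% and 0.195. A GC box was found in 67.4% of the covered runs, 15.2% of those without a peak and 35.7% of all 32851 runs of the table. An ETS match was in 18.97%, 2.53% and 8.86%, and a TATA box in 6.46%, 25.3% and 13.6%, in the same order. The CCAAT box was in 38.7%, 41.2% and 37.4%, and AP-1 in 5.22%, 10.1% and 7.81%. The cyclic AMP response element (TGACGTCA) was in 3.502%, 0.746% and 1.79%. The 32851 runs span 27025 genes, some with several runs, whereas the first 2 sets have 1 run per autosomal protein-coding gene. Over all 16457 runs chosen in that way, a GC box was in 47.3%, an ETS match in 12.3% and a TATA box in 13.5%. The CCAAT box was in 39.1%, AP-1 in 7.12% and the cyclic AMP response element in 2.40%. The glucocorticoid response element as spelled above was in 0 covered runs, in 1 without a peak and in 3 of all. So exact a spelling is rare in any set of runs, and these counts cannot tell open starts from others.

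Among covered starts the motif content differed by the level of the peak, steadily for some motifs and not for others. From the lowest to the highest of 5 equal groups by peak level, the share of runs with a CCAAT box went from 31.1% to 54.8% and that with a GC box from 54.7% to 75.7%. The share with an AP-1 match was 9.25% in the lowest group and between 3.90% and 4.80% in the others. From the lowest to the highest group an ETS match was in 7.13%, 19.8%, 24.5%, 23.8% and 19.6%. The cyclic AMP response element was in 2.34%, 3.90%, 3.74%, 4.57% and 2.96%, and a TATA box in 8.92%, 7.08%, 5.63%, 5.24% and 5.41%. Letters in a window are a description and not evidence of binding. The median GC content went from 59.0% to 63.3% and the CpG ratio from 0.584 to 0.825 over the same groups, and their part in the motif shares was not tested.

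The highest members in WT control cells included peaks at several transcription factor genes. The peak centred nearest the other end of Junb, an AP-1 subunit gene (chromosome 8, 84973887 to 84981526), spanned 7640 bases. It stood at 215 ± 6.07 CPM (SD, n = 3). The peak at Bhlhe40, a helper T cell transcription factor gene, stood at 196 ± 11.0 CPM, and those at the starts of Dusp2, a phosphatase that switches off MAP kinases, and Mnt, an antagonist of Myc, at 187 ± 19.7 and 184 ± 9.98 CPM. The peaks at Mtmr4, Il4ra (centred nearest its other end, 13307 bases wide), Irf2bp2 and Sp1 ranged from 177 to 182 CPM. The Junb and Il4ra peaks are named by the end nearest their centre. Both reach over 1 kb to either side of that end, so the name does not place their signal there. Per kb the order was another: the other-end peak of Lars2, a mitochondrial tRNA synthetase gene, led with 212 CPM per kb in WT control, ahead of Kdm4b (106), Pdia4 (94.7), Zfp869 (93.4), Ap2a1 (88.3) and Khsrp (85.9). The Lars2 peak varied widely among the WT control libraries, at 104 ± 33.9 CPM. How reads that match several places were handled is not known here, so its level is uncertain. At the low extreme, tested peaks at Gbp8 and Cd63 had WT control means of 0.0948 and 0.0968 CPM. Peaks at Plpp2, Bmp1 and Plxnd1 were also under 0.7 CPM per kb. The members with the largest replicate variation at a mean of at least 5 CPM all lay at other ends, those of Rnpepl1 (coefficient of variation 34.8%), Rnf216 (29.9%), Cyp4f40 (29.7%) and Ppm1m (27.7%).

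Gene-end peaks of T cell genes were strong. Of 24 T cell identity genes 21 had a gene-end peak, with a median of 31.8 CPM for the strongest peak of each gene, led by Cd2 (174 CPM), an adhesion receptor, and Lat (61.4 CPM), a scaffold of T cell receptor signalling. The 29 Th17 genes with a peak, of 30, had a median of 13.0 CPM and spread widely, from Bhlhe40 (181 CPM over all libraries) and Stat3 (85.8), the transducer of IL-6 and IL-23, through Il17f (13.0) and Il17a (4.19) to Rora (0.431) and Il10 (0.394). Low values at genes such as Rora hold for peaks centred at a gene end only. Genes used by every cell were open, with medians of 25.1 CPM for 25 of 25 ribosomal protein genes and 29.8 CPM for 23 of 23 ubiquitous promoter genes. Markers of other cells were lower: medians were 1.96 CPM for B cell genes (8 of 11, highest Cr2 at 5.42), 2.62 for CD8 T and NK cell genes (10 of 12, highest Gzmb at 20.9), 5.80 for myeloid and dendritic genes (11 of 17, highest Xcr1 at 34.9), 2.32 for erythroid and stromal genes (8 of 13, highest Cdh5 at 9.34) and 2.40 for neuronal genes (11 of 14, highest Tubb3 at 10.5). Ms4a1 and Pax5 were among the B cell genes without a gene-end peak, while 8 of 11 had one. The lack of such a peak does not show that a gene has no open site elsewhere. Summed over the B cell list, the 3 libraries of WT control ranged from 24.1 to 27.6 CPM, of WT Dex from 22.3 to 27.7, of cKO control from 21.0 to 26.9 and of cKO Dex from 23.2 to 26.97. Summed over the myeloid list, the ranges were 93.9 to 107, 104 to 115, 92.9 to 99.4 and 101 to 112 CPM in that order.

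**Figure D2:**
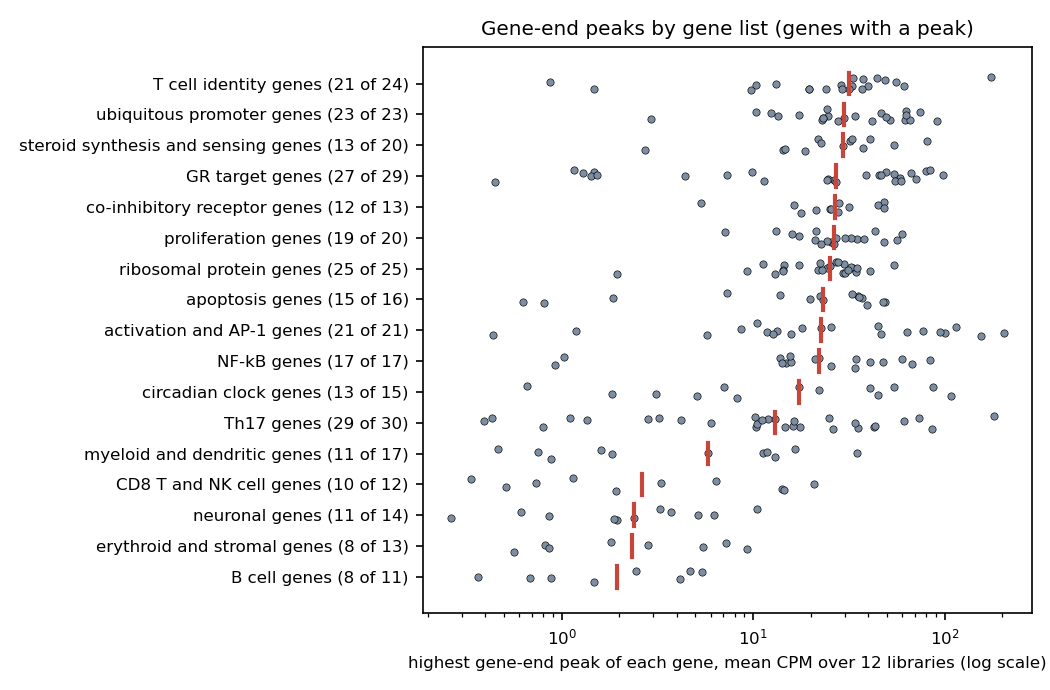
Level of the strongest gene-end peak of each gene, as mean CPM over the 12 libraries on a log axis, by gene list, with the list median as a red bar and the number of genes with a gene-end peak of all measured in brackets. T cell, ubiquitous and ribosomal lists have medians of 25.1 to 31.8 CPM, and lists for other cell types have medians of 1.96 to 5.80 CPM.

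The libraries differed in how much of their signal fell at gene ends. Totals ran from 12988437 to 25081591 counts. Of counts in tested peaks, the part at gene ends was 28.4% ± 0.500 for WT control, 29.1% ± 0.826 for WT Dex, 26.7% ± 0.107 for cKO control and 27.5% ± 0.530 for cKO Dex libraries (SD, n = 3). The 6 WT libraries ranged from 28.04% to 29.6% and the 6 cKO libraries from 26.5% to 27.9%, without overlap, a difference of means of 1.66 percentage points. Peaks at starts held 21.5%, 22.1%, 20.1% and 20.8% in the 4 groups, peaks without a known strand 5.17%, 5.28%, 4.89% and 5.02%, and other ends 1.69%, 1.68%, 1.73% and 1.69%. The first 2 of these classes were thus lower in cKO than in WT in both treatments, the starts by more. WT Dex replicate 3 (28.1%) and cKO Dex replicate 3 (26.9%) stood below their group partners, which were at 29.6% and 29.6%, and at 27.9% and 27.6%.

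How far a library's counts were gathered in strong peaks moved with this share. The strongest 10% of tested peaks, 20259 peaks of which 7226 (35.7%) were gene-end peaks, took 61.2%, 62.6%, 58.9% and 60.3% of counts in the 4 groups. Over the 12 libraries that share and the gene-end share had a Pearson's r of 0.911, given as a description since the 2 shares have peaks in common. Of start peaks 51.0% were in that group, and of other-end peaks 6.49%. What sets this gathering was not tested. In bulk libraries fewer cells with an open site and less cutting per cell cannot be told apart.

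**Figure D3:**
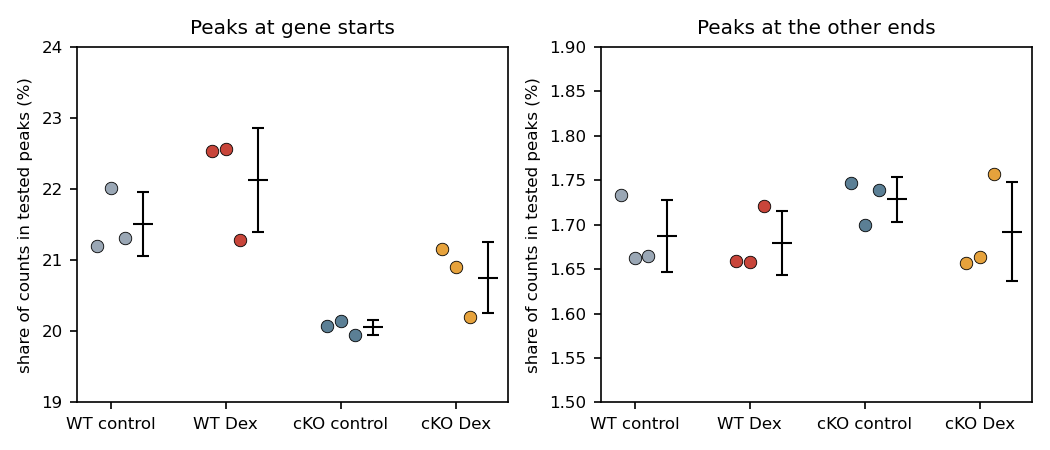
Share of each library's counts in peaks at gene starts (left) and at other ends (right), in percent of counts in tested peaks, for 12 libraries in 4 groups, with the group mean and SD beside them; the axes do not start at 0. Starts hold 21.2 to 22.6% in WT and 19.9 to 21.2% in cKO libraries, and other ends hold 1.66 to 1.76% in all 12.

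Dex in WT cells raised 38 gene-end peaks and lowered 5 at an adjusted p under 0.05 (edgeR quasi-likelihood test with Benjamini-Hochberg adjustment over all tested peaks), and peaks past this threshold are referred to as called. Those 43 are 0.220% of tested members, against 0.534% of all tested peaks (0.42% higher and 0.114% lower). They comprised 15 higher at starts and 11 higher and 4 lower at other ends, and 12 higher and 1 lower where no strand was at hand. The peaks that rose included those of a kinase (Sgk1), a brake on glucose uptake (Txnip), GTPases of lymphocytes (Gimap3, Gimap5, Gimap9), an RNA decay factor (Zfp36l2), acute-phase proteins (Orm1, Orm3), a cytokine receptor chain (Il12rb2) and a viral RNA sensor (Ifih1). The log2 fold changes of the 38 ran from 0.42 to 1.68 with a median of 0.71, and 12 of the 43 changed at least 2-fold. All WT Dex libraries lay above all WT control libraries for 38 of 38, and above all 9 other libraries for 30 of 38. The WT libraries chose these 38 peaks, which favours such a separation, so these counts are a description and no support for the calls. The split of 38 higher to 5 lower depended on the scaling: it was 62 to 20 with total counts, 67 to 35 with loess offsets and 56 to 43 with the strong-peak share as a covariate.

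Single libraries moved the count. It was 15 higher without WT Dex replicate 1 or without WT control replicate 3, 24 without WT control replicate 1 or 2, and 21 without WT Dex replicate 2. Without WT Dex replicate 3 it was 48. The 5 lower peaks became 8 without WT Dex replicate 3, 11 without cKO Dex replicate 3, 1 without WT control replicate 2, 2 without WT Dex replicate 1, and 3 without WT control replicate 1 or 3, WT Dex replicate 2 or cKO control replicate 3. Of the 43 called peaks 12 remained called in each of the 12 fits that left out 1 library. DESeq2 also called 42 of the 43 and gave no adjusted p for H2-T3, and limma-voom called 36.

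Sgk1, which encodes a kinase named for its induction by serum and glucocorticoids, had the smallest p. The peak, 703 bases beyond its other end (chromosome 10, 21999957 to 22001255, mm10), stood at 6.03, 4.19 and 3.67 CPM in WT without Dex and 11.0, 11.9 and 10.6 CPM with it. In cKO cells it stood at 6.30, 4.75 and 5.55 CPM in control and 6.83, 7.97 and 8.87 CPM with Dex. The WT Dex libraries lay above all others, and the cKO Dex libraries above the cKO control ones by less. The log2 fold change was 1.31 ± 0.17 (SE, n = 3 per group, edgeR adjusted p = 4.4e-07) in WT and 0.51 ± 0.17 (adjusted p = 0.837) in cKO.

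Gimap3, whose promoter is printed above, belongs to a family of GTPases that support T cell survival. The peak at its start (chromosome 6, 48768304 to 48771651) covered 3348 bases and read 40.2, 44.6 and 44.0 CPM in WT control against 71.3, 71.6 and 68.0 CPM in WT Dex. The cKO libraries read 43.5, 46.0 and 44.8 CPM without and 50.8, 53.6 and 50.8 CPM with Dex. The 3 WT Dex libraries stood well clear of the other 9. The rise was 1.64-fold (log2 0.71 ± 0.10, edgeR adjusted p = 1.1e-06). Gimap5 at its start rose from 77.4 ± 6.65 to 103 ± 6.98 CPM (SD, n = 3), and Gimap9 at its other end from 2.25 ± 0.564 to 4.34 ± 0.529 CPM. The calls at Gimap5 and Gimap9 held in 7 and 8 of the 12 fits without 1 library, and reads from related members of this family may be shared between them.

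Txnip, an inhibitor of thioredoxin that also limits glucose uptake, was called at its other end. The peak 460 bases beyond that end (chromosome 3, 96561884 to 96562750) was at 3.89, 4.14 and 3.96 CPM in WT without Dex and 9.77, 8.76 and 7.37 CPM with it. It was at 4.92, 3.60 and 4.84 CPM in cKO control and 4.76, 4.91 and 3.70 CPM in cKO Dex. The WT Dex libraries stood apart, and the cKO groups overlapped each other. The fold was 2.15 in WT (log2 1.11 ± 0.18, edgeR adjusted p = 8.7e-05) and 1.01 in cKO. The strongest gene-end peak of Txnip, at its start, had a mean of 66.5 CPM and was not called.

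Herpud1, which encodes a membrane protein of endoplasmic reticulum quality control, had a peak 407 bases beyond its other end (chromosome 8, 94395260 to 94396295). It stood at 8.24, 13.2 and 11.6 CPM in control WT cells, 20.4, 25.0 and 21.3 CPM in WT Dex, 11.0, 14.9 and 10.6 CPM in cKO control and 12.6, 17.5 and 13.3 CPM in cKO Dex. All WT Dex values exceeded the other 9. The rise was 1.99-fold (log2 0.99 ± 0.15, edgeR adjusted p = 1.5e-05). Mbip, at its other end, rose 2.19-fold in WT (adjusted p = 0.00042) and had a log2 of 0.64 ± 0.20 in cKO that was not called.

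The 15 peaks called at starts, all higher, lay at genes of varied function. Arap2, a GTPase-activating protein gene whose promoter is the most GC-rich of those printed, had a peak centred 7 bases before its start (chromosome 5, 62765524 to 62766873). It read 12.2, 16.3 and 15.9 CPM in control WT cells, 24.3, 26.6 and 21.2 CPM in WT Dex, 13.98, 13.8 and 13.3 CPM in cKO control and 16.8, 19.3 and 13.4 CPM in cKO Dex. The WT Dex libraries again lay above the rest, and the rise was 1.61-fold (log2 0.69 ± 0.13, edgeR adjusted p = 0.001). Ctla2b, a cysteine protease inhibitor gene, rose from 38.0 ± 3.04 to 52.7 ± 4.43 CPM, and Cnp, a phosphodiesterase gene abundant in myelin, from 21.0 ± 2.61 to 31.2 ± 2.73 CPM (SD, n = 3). Il12rb2, the IL-12 receptor chain of Th1 cells, rose from 10.3 ± 1.31 to 16.1 ± 0.451 CPM. Calls at Ctla2b, Cnp and Il12rb2 each held in 9 of the 12 fits without 1 library. Spatc1l rose 1.91-fold (log2 0.94 ± 0.16) and held in all 12.

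The orosomucoid genes, which encode acute-phase plasma proteins, lie side by side on chromosome 4. The peak at the start of Orm3 (63353289 to 63356913) read 21.7, 22.2 and 21.6 CPM in WT without Dex and 34.2, 36.9 and 33.6 CPM with it. The peak at Orm1 (63343423 to 63344534) read 11.7, 13.3 and 14.5 CPM and 20.9, 23.2 and 20.6 CPM. Both rose, by a log2 of 0.67 ± 0.11 and 0.71 ± 0.13 (edgeR adjusted p = 0.00014 and 0.00041). In cKO the log2 values were 0.13 ± 0.11 and 0.41 ± 0.13, neither called. These genes are near-identical copies, so reads may be split between them in a way not known here.

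Other peaks that kept the call in all 12 fits without 1 library were those of Gcnt3, a mucin glycosyltransferase gene (14.1 ± 2.16 to 25.6 ± 2.06 CPM), Tg, the thyroglobulin gene (27.5 ± 2.87 to 43.4 ± 1.9995 CPM), and the odorant receptor gene Olfr1258 (0.855 ± 0.345 to 2.89 ± 0.365 CPM, a weak peak; SD, n = 3). Zfp36l2, whose product speeds the decay of AU-rich transcripts, rose from 65.8 ± 2.89 to 93.0 ± 12.7 CPM. Its edgeR adjusted p of 0.0026 became 0.112 without WT Dex replicate 1 and 0.0756 without WT control replicate 3. Pla1a, a phospholipase gene, rose 1.53-fold, with an adjusted p of 0.0015 that became 0.0515 without WT Dex replicate 2. The remaining higher calls, at Pkhd1l1, Olfr225, Rmi2, Cd33, Slc13a1, Rtkn2, Dnajc5b, Trip4, Relt, Pspc1, Ifih1, Nlrp10, Snx8, Brip1, Ripor3, Smco3 and Acp6, held in 3 (Smco3) to 11 (Pkhd1l1) of the 12 fits without 1 library. No gene had 2 called gene-end peaks. Odorant receptor genes and the histone gene H2ac4, whose peak also rose, have close relatives, and their values are uncertain for that reason.

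**Figure D4:**
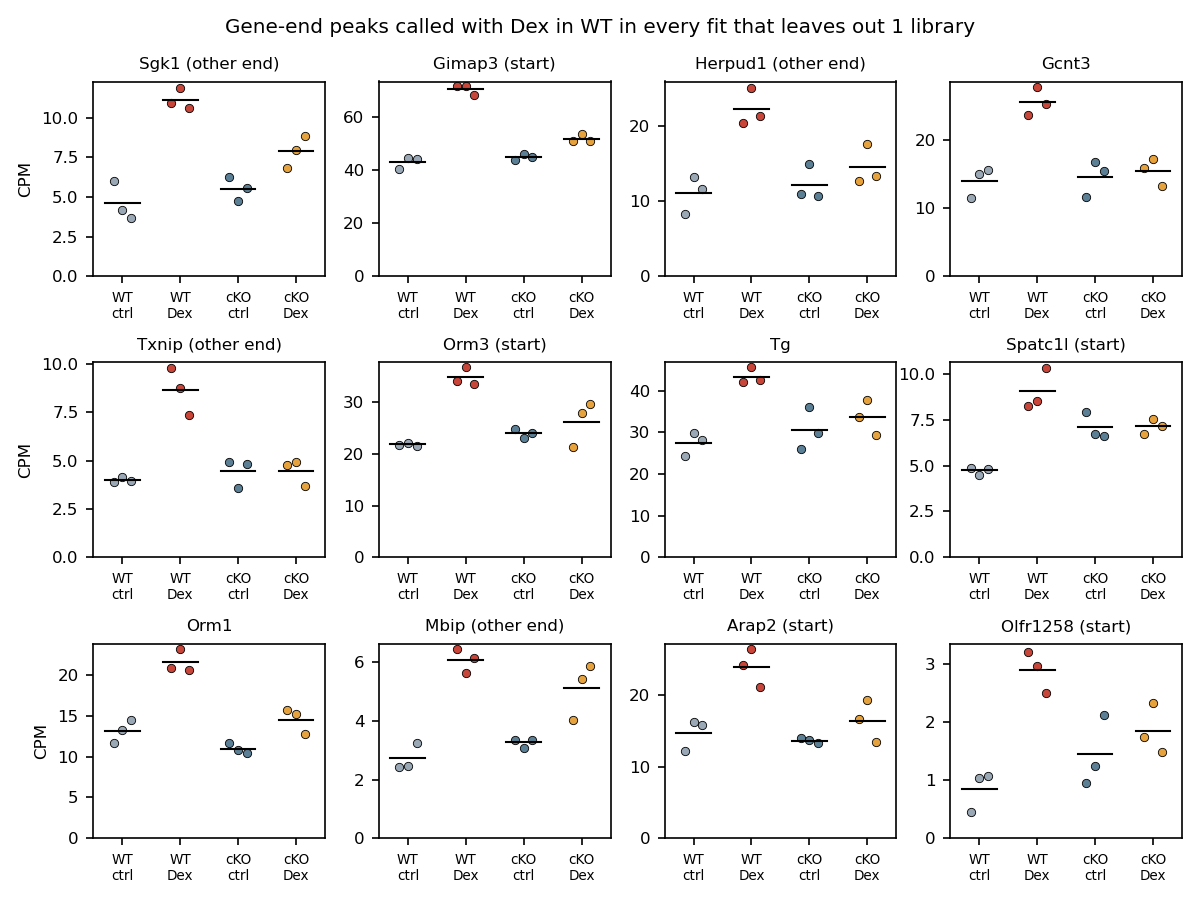
CPM per library of the 12 gene-end peaks called for Dex in WT cells in every fit that leaves out 1 library, with the group mean as a line, 3 libraries per group; axes start at 0. WT Dex libraries lie highest in every panel except for the overlap with single cKO Dex libraries at Mbip.

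The 5 peaks that fell were mostly weak. Kpnb1, the nuclear import receptor importin beta, fell at its other end from 12.4, 18.8 and 15.4 CPM to 10.2, 10.4 and 8.51 CPM (log2 -0.69 ± 0.14, edgeR adjusted p = 0.003). The adjusted p became 0.131 without WT control replicate 2 and 0.0523 without WT Dex replicate 3. A peak within Jun, at its other end, fell from 3.43, 3.84 and 3.18 CPM to 1.39, 1.897 and 1.59 CPM (adjusted p = 0.031), and stood at 1.903 ± 0.213 and 1.77 ± 0.324 CPM in cKO control and cKO Dex. Its WT control libraries were thus above all 9 others. Inpp5j, a phosphoinositide phosphatase gene, and Zfyve28 fell from 2.65 ± 0.425 to 1.11 ± 0.409 and from 2.37 ± 0.623 to 0.945 ± 0.249 CPM. H2-T3, a nonclassical MHC gene with near copies, had 13, 10 and 16 counts in WT control and 2, 0 and 0 in WT Dex, against 4, 8 and 13 in cKO Dex. The calls at Jun, Inpp5j, Zfyve28 and H2-T3 held in 6, 5, 5 and 8 of the 12 fits without 1 library.

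Few strong peaks at starts were called, and the difference from other strong peaks was not tested. Over 10 CPM, 9 of 6177 start peaks (0.146%) were called for Dex in WT, all higher, against 2 of 370 at other ends (0.541%), 204 higher and 24 lower of 9727 inside genes (2.34%) and 173 higher and 26 lower of 6797 between genes (2.93%). The replicate variation at equal level differed little: between 10 and 30 CPM the median over peaks of the coefficient of variation of CPM within groups was 9.27% at starts, 9.44% at other ends, 9.73% inside genes and 9.98% between genes. The 12 covered promoter runs under peaks called higher had a median of 54.7% G and C, with an AP-1 match in 3 and a TATA box in 2. Over 5 equal groups of covered starts by GC content, the median log2 for Dex in WT lay between 0.09 and 0.10, and 6, 2, 2, 0 and 2 peaks were called from the lowest to the highest.

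**Figure D5:**
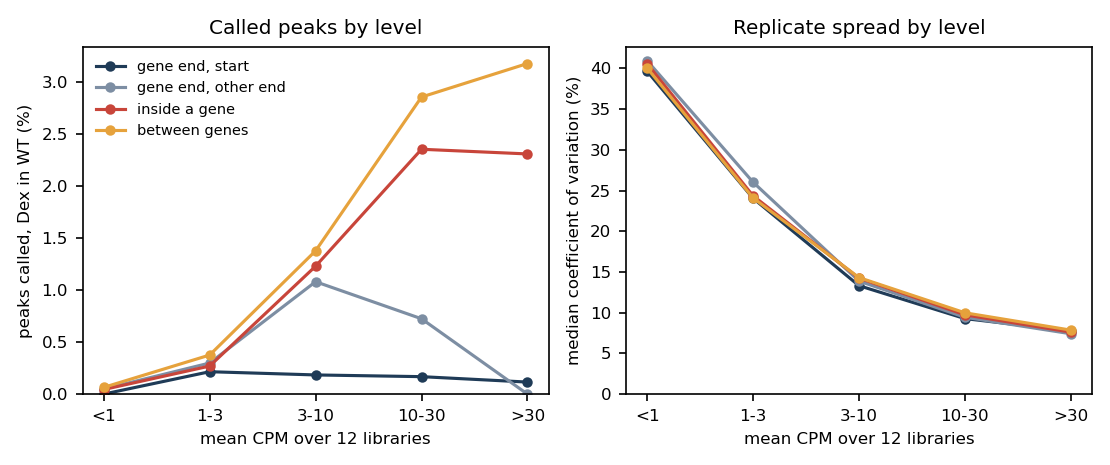
Share of tested peaks called for Dex in WT cells, in percent (left), and median over peaks of the coefficient of variation of CPM within groups, in percent (right), by mean CPM over the 12 libraries, for peaks at gene starts, at other ends, inside genes and between genes. Over 10 CPM the share called is 0.146% at starts against 2.34% inside genes and 2.93% between genes, while the replicate variation at 10 to 30 CPM is 9.27% to 9.98% in the 4 classes.

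Of 17 gene lists 3 held a gene called for Dex in WT. Of 27 GR target genes with a gene-end peak, of 29 measured, Sgk1, Txnip and Zfp36l2 had a higher one. That is 3 of 40 tested peaks (7.5%) against 0.220% of all tested members. The median log2 over the list's 40 peaks was 0.15 against 0.07 over all gene-end peaks. The list was chosen with earlier results of these data known, so these values are a description and no enrichment was tested. The start of Il7r, the receptor chain for IL-7, read 20.7, 23.5 and 21.8 CPM in WT without Dex and 30.0, 27.7 and 27.6 CPM with it, and its log2 of 0.37 ± 0.11 was not called (edgeR adjusted p = 0.166). Peaks known to be at starts of this list ranged widely in level, and none of them was called. Per1, a clock gene, stood at 98.1 CPM and Ddit4, an mTOR inhibitor, at 83.9 CPM. Cdkn1a, a cell cycle inhibitor, stood at 3.87 CPM and Anxa1, a mediator that restrains inflammation, at 1.43 CPM. Nfkbia, the NF-kB inhibitor, stood at 0.449 CPM. Low values here hold for peaks centred at a gene end only, and wide peaks centred over 1 kb away are left out. Of 29 Th17 genes Cd5l, which encodes a secreted regulator of lipid metabolism and Th17 pathogenicity, was higher at its other end (2.19 ± 0.451 to 4.41 ± 0.585 CPM, SD, n = 3; adjusted p = 0.029, held in 7 of the 12 fits without 1 library). The Th17 peaks next by p, at Csf2 (1.04 ± 0.38), Tgfb3 (0.31 ± 0.11) and Batf (0.24 ± 0.11), were not called. The activation and AP-1 list had the lower peak at Jun and no other call among 21 genes.

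The remaining lists had 12 to 51 tested peaks each, of which 0.220% is under 1 peak. No gene was called for Dex in WT among the T cell identity (21 with a peak), NF-kB (17), apoptosis (15), circadian clock (13), steroid synthesis and sensing (13), co-inhibitory receptor (12), ribosomal protein (25), ubiquitous promoter (23) and proliferation (19) genes. Their median log2 values lay between 0.01 (T cell identity) and 0.14 (proliferation). No gene was called either in the neuronal list or in those of B cells, CD8 T and NK cells, erythroid and stromal cells and myeloid cells. The median log2 was -0.27 for the B cell list. For the other lists of this kind it lay between 0.05 (erythroid and stromal) and 0.11 (CD8 T and NK). The strongest gene-end peaks of these lists were those of Cyld (NF-kB, 83.7 CPM), Bcl2 (apoptosis, 48.8), Nr1d1 (clock, 108), Ncoa2 (steroid sensing, 81.3), Ctla4 (co-inhibitory receptors, 48.5), Rplp0 (ribosomal, 54.5), Actb (ubiquitous, 91.0) and Pcna (proliferation, 60.2).

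Gene-end peaks as a whole shifted slightly with Dex in both genotypes. The median log2 was 0.07 in WT and 0.06 in cKO, against -0.001 and -0.004 over all tested peaks, and 64.6% and 62.1% of members were above 0. The medians of members were 0.02 in WT and 0.00 in cKO with loess offsets, and 0.01 in both with the strong-peak share as a covariate. With total counts they were 0.02 and 0.01, where those of all tested peaks were -0.05 and -0.06, so that the gap between them stayed. The part of the gathering of counts in strong peaks in this shift was not tested.

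Dex in cKO cells gave 0 called gene-end peaks, against 0.00296% of all tested peaks. At an unadjusted p under 0.05 there were 1484 members (7.59%, against 5.84% of all tested peaks). DESeq2 and limma-voom each called 0, against 0.00494% and 0.000987% of all tested peaks. Pyroxd1, an oxidoreductase gene, had the smallest p: its start peak read 8.76, 8.09 and 6.58 CPM in cKO control and 13.3, 12.7 and 10.5 CPM in cKO Dex (log2 0.64 ± 0.15, edgeR adjusted p = 0.361). Flt4, a growth factor receptor gene, stood at 3.42 ± 0.188 and 1.66 ± 0.134 CPM (adjusted p = 0.559), and Clint1, a clathrin adaptor gene, at 14.5 ± 0.762 and 20.3 ± 2.54 CPM (adjusted p = 0.589; SD, n = 3). None of these passed the test. Without cKO Dex replicate 3 the count was 24, of which 9 were higher and 15 lower.

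The 38 peaks that rose in WT had a median log2 of 0.71 there and 0.09 in cKO, and 31 of the 38 were above 0 in cKO. Over all tested members the median in cKO was 0.06, and 62.1% were above 0. The values for WT chose the 38 peaks and are a description. The difference between the Dex effects, tested for each peak as an interaction, was called for 0 gene-end peaks, against 0.0276% of all tested peaks. At an unadjusted p under 0.05 there were 798 members (4.08%, against 5.65% of all tested peaks). DESeq2 called 1 and limma-voom 0, against 0.04% and 0.0291% of all tested peaks. The interaction shares the WT libraries with the Dex effect in WT. The smallest p belonged to Mad1l1, a spindle checkpoint gene (log2 difference 2.13 ± 0.49, edgeR adjusted p = 0.116), followed by Txnip (1.09 ± 0.26, 0.165) and Gcnt3 (0.77 ± 0.19, 0.173). A Dex effect called in WT and not in cKO is therefore not shown to differ between the genotypes at any gene end with the main scaling. The count was 8 with loess offsets, 12 with the strong-peak share as a covariate, 7 without cKO Dex replicate 3 and 1 without WT control replicate 1.

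Genotype without Dex was called at 3 gene-end peaks, or 0.0153% of members against 0.0104% of all tested peaks. The start of Rhoh, an atypical small GTPase needed for T cell receptor signalling (chromosome 5, 65860305 to 65861862), read 19.5, 18.1 and 23.8 CPM in control WT cells and 7.26, 11.3 and 9.55 CPM in cKO control. With Dex it read 19.7, 18.1 and 18.7 CPM in WT and 11.9, 10.7 and 9.30 CPM in cKO, so that all 6 WT libraries lay above all 6 cKO libraries. The log2 was -1.13 ± 0.14 (edgeR adjusted p = 9.8e-07) without Dex and -0.82 ± 0.14 (adjusted p = 0.00027) with it, and both calls held in all 12 fits without 1 library. DESeq2, whose own filter on low levels withholds some adjusted p-values, gave none for Rhoh without Dex (its unadjusted p was 3.7e-13).

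The other calls without Dex were lost in more of the fits without 1 library. Ctnnbip1, an inhibitor of beta-catenin whose promoter is printed above, had a start peak (chromosome 4, 149517672 to 149518764) at 28.3, 33.5 and 34.1 CPM in control WT cells and 23.7, 21.9 and 17.7 CPM in cKO control (log2 -0.60 ± 0.12, edgeR adjusted p = 0.048). Its adjusted p became 0.89 without cKO control replicate 3, 0.563 without WT control replicate 3 and 0.478 without WT control replicate 2, and passed 0.05 without 3 other libraries. The weak other-end peak of Mad1l1 was higher in cKO control (0.857 ± 0.394 and 2.82 ± 0.525 CPM, SD, n = 3; adjusted p = 0.043) and held in 5 of the 12 fits without 1 library. The count was 21 without cKO Dex replicate 3 and 1 without WT control replicate 2 or 3, WT Dex replicate 1, cKO control replicate 2 or 3, or cKO Dex replicate 1. It was 5 without cKO Dex replicate 2. DESeq2 called 280 gene-end peaks, all lower in cKO, against 0.183% of all tested peaks that it called. It gave an adjusted p to 5710 members, of which the 280 are 4.90%, and to 14057 of all tested peaks, of which it called 2.64%. Ctnnbip1 was among those called, and Mad1l1 had no adjusted p.

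Most peaks at starts were lower in cKO, each by little. The median log2 of cKO over WT without Dex was -0.15 at starts, 0.06 at other ends, 0.04 inside genes and 0.01 between genes. Over 30 CPM it was -0.20 at starts, -0.11 at other ends, -0.10 inside genes and -0.10 between genes. The median over all members of -0.11 became -0.03 with loess offsets and -0.04 with the strong-peak share as a covariate. With total counts it was also -0.03, where the median of all tested peaks was 0.09, against 0.01 with the main scaling, so that the gap between them stayed. The share of counts in strong peaks was lower in cKO control than in WT control, as given above, and its part in the shift was not tested.

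Genotype under Dex was called at 15 gene-end peaks, all lower in cKO, or 0.0767% of members against 0.17% of all tested peaks and 0.13% called lower. This comparison shares the WT Dex libraries with Dex in WT. Cd33, a sialic acid-binding receptor gene best known from myeloid cells, stood at 5.55, 4.69 and 4.14 CPM in WT Dex and 1.42, 1.77 and 1.69 CPM in cKO Dex at its start (log2 -1.56 ± 0.25, edgeR adjusted p = 0.00014). Gcnt3 stood at 25.6 ± 2.06 and 15.5 ± 1.98 CPM (adjusted p = 0.0009), and these peaks and Rhoh held in all 12 fits without 1 library. DESeq2 called 14 of the 15 and gave no adjusted p for Cd33 (unadjusted p = 2.6e-08). Txnip (log2 -0.94 ± 0.18) lost its call without WT Dex replicate 1 (-0.85), and Zfp36l2 (-0.52 ± 0.10) without WT Dex replicate 1 (-0.45) or 2 (-0.46). Gimap3, Cnp, Orm1, Herpud1 and Arap2 were also lower, by 0.44 to 0.62 on the log2 scale. Their calls held in 9, 8, 8, 4 and 3 of the 12 fits without 1 library, in that order.

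Of the remaining calls, the peak shared by the starts of Nln, a peptidase gene, and Sgtb, a co-chaperone gene, was the only called one between the starts of 2 genes, at 29.5 ± 2.61 CPM in WT Dex and 19.8 ± 0.166 CPM in cKO Dex (SD, n = 3). The call at this peak held in 9 of the 12 fits without 1 library. Zfp658, Ddx20, an RNA helicase gene, Gucy1b1, a guanylate cyclase subunit gene, and Mto1, a mitochondrial tRNA modification gene, held their calls in 5, 3, 2 and 2 of the 12 fits without 1 library. The count of 15 fell to 3 without WT Dex replicate 1 and 4 without WT Dex replicate 2, was 7 without cKO Dex replicate 1 and 9 without cKO control replicate 3, and rose to 78 without WT Dex replicate 3. With total counts it was 17 higher and 49 lower, with loess offsets 18 and 30, and with the strong-peak share as a covariate 40 and 45.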

How the data were processed

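Chromatin accessibility was measured by ATAC-seq in 12 libraries. The values used are whole-number counts per peak for 222105 peaks, deposited by the authors and, per the file headers, not normalised. The genome build was mm10, and the submitters' processing notes name featureCounts 2.1.1, Genrich 0.6.1, Bowtie2 2.3.5, Trimmomatic 0.39, SAMtools 1.3, Picard 2.18.27 and deepTools 3.5.6. The sources used here do not give their settings, the handling of reads that match several places, any shift for the transposase cut or whether reads or fragments were counted. Totals per library ran from 12988437 to 25081591 counts.

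Peaks were filtered with filterByExpr (minimum count 10, minimum total 15), scaled by TMM and tested with the robust quasi-likelihood F-test of edgeR 4.0.16 (R 4.3.3) on all 12 libraries with 1 coefficient per group, which left 8 residual degrees of freedom. Two-sided p-values were adjusted (Benjamini-Hochberg) over 202587 tested peaks. The SE of a log2 fold change was taken as its size over the root of F. The steps were tested on simulated data. CPM values are from the cpm function of edgeR with TMM-scaled library sizes. Alternatives were RLE size factors, total counts, loess offsets, no filter, a replicate block, the share of counts in strong peaks as a covariate, only the groups compared, DESeq2 1.42.0, limma-voom (limma 3.58.1), 3 other rules for members, and leaving out each library.

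Gene spans came from the RefSeq gene table and strand from the RefSeq promoter table, both of GRCm38.p6, the build that mm10 also names. Strand was at hand for 16457 of 20665 autosomal protein-coding genes. Motifs were matched exactly on both strands.

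Peaks named in the text were those called with the smallest p in each comparison (14 higher and 8 lower for Dex in WT, up to 12 elsewhere), those highest and lowest at baseline, those most variable among replicates and members of 17 gene lists. Other called peaks that are named were chosen after their values were seen. The members and the lists were chosen with earlier results of these data known.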

Additional observations from a re-analysis of the deposited data

How the results depend on the processing

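The count of gene-end peaks that rose with Dex in WT, 38, was 62 with total counts, 67 with loess offsets, 69 with only the groups compared and 66 with DESeq2. It was 20 with a limit of 500 bases, 74 with 2 kb and 22 for peaks that overlap a gene end. The count that fell, 5, was 20, 35, 12, 11 and 1 with total counts, loess offsets, only the groups compared, 2 kb and overlap, and 43 with the strong-peak share as a covariate. Without 1 library the counts ranged from 15 to 56 higher and from 1 to 11 lower. Calls for Dex in cKO, 0, were 1 with 2 kb and 0 to 24 without 1 library. Calls for the interaction, 0, were 2 with total counts, 8 with loess offsets, 12 with the covariate, 1 with DESeq2, 5 with 2 kb and 0 to 7 without 1 library, and only the groups compared gives no separate interaction. Genotype without Dex, 3 calls, gave 15 with total counts, 12 with loess offsets, 1 without a filter, 1 with the covariate, 45 with only the groups compared, 280 with DESeq2, 5 with 2 kb and 1 to 21 without 1 library. Genotype under Dex, 15 calls, gave 66 with total counts, 48 with loess offsets, 85 with the covariate, 56 with limma-voom, 85 with DESeq2, 30 with 2 kb and 3 to 78 without 1 library. The cause of these moves was not tested beyond what each setting changes by construction. The difference between genotypes in the share of counts at gene ends lay between 1.45 and 1.76 percentage points over 4 other settings. Of 1482 recomputed values for 71 named results 0 reversed, and 225 lost the call without 1 library and 46 under other settings. Values without an adjusted p from DESeq2 (H2-T3, Csf2, Cd33, Rhoh and Mad1l1 in 1 comparison each) are not among the 1482.

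Same-numbered libraries deviated together in 3 of 18 pairs at a correlation over 0.1 (range -0.188 to 0.258). The labels do not say whether the numbers pair the samples, and these correlations do not settle it. With the replicate number as a replicate block the counts were 80 higher and 14 lower for Dex in WT, 2 for the interaction, 93 for genotype without Dex and 168 for genotype under Dex. Of the 43 peaks called for Dex in WT 9 (20.9%) had a mean under 3 CPM, as had 42.9% of tested members.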

Other observations

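Peaks called for Dex in WT cells lay close to the middle of the members in width and level, with a median width of 867 bases and a median of 8.15 CPM against 824 bases and 5.30 CPM over all tested members, and 23 of the 43 held the gene end itself. The Pcdhga gene cluster on chromosome 18, where protocadherin genes share their last exons, gave the peak with the most genes in reach, 24, and no strand was at hand for it. Promoter runs of 1074 genes lay under a peak centred over 1 kb from any gene end, with a median of 61.3% G and C, close to the 61.7% under gene-end peaks.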
